A study of Mus musculus with 18 samples.

Results

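Gene expression in mouse dorsal root ganglion explants was compared between day 22 and day 10 of myelination medium, over the 12 arrays labelled with those days of the 18 arrays in the series. The ganglia came from C57BL/6J embryos at embryonic day 13.5 and had been kept on matrigel in growth medium for 12 days before the myelination medium was added. Per the labels, day 10 is early myelination and day 22 is the stage with many mature sheaths. Each day had 3 batches, which are pools of embryos collected at different times, and 2 technical arrays per batch. The 6 arrays of day 0, taken just before the medium was added, were used to ask which genes had already moved by day 10. They also counted in the filter on dim probes, in the choice of a gene's probe and in the spread of the fit. Every culture compared received the medium, so effects of culture time and of the medium cannot be separated. The arrays measure all cells of the explant together, so fewer cells of a type and less RNA per cell cannot be told apart either.

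In a ganglion explant, sensory neurons send out axons on which Schwann cells grow, divide, line up and wrap myelin. Wrapping begins once Schwann cells leave the cell cycle, assemble a basal lamina and switch on the genes of compact myelin. Later the sheath thickens and its junctions with the axon are completed, while fibroblasts, macrophages and satellite glia of the ganglion persist in the same dish.

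A level is the log2 intensity of a gene's probe minus that of the 75th percentile of its array, so 0 is as bright as that percentile. Changes are log2 differences, day 22 minus day 10, ± the standard error of the limma fit with n = 3 labelled batches per day. Between 54.8 and 61.5% of the 59305 spots of an array that were not controls were well above background. Precision is set by the small number of arrays. Markers of the labelled tissue were present. On every array of days 10 and 22, 22 of 22 pan-neuronal genes and 19 of 20 peripheral myelin genes exceeded background clearly. Of 15 endothelial genes, 9 did so on every day 10 array and 9 on every day 22 array. The endothelial genes Tek, Tie1, Erg, Sox17 and Robo4 were well above background on no array of either day. One day 22 array on slide 1 was at the end of the range in several sums, though no gap met the limit for an outlier. It was the lowest of the 6 in myelin proteins (680.1 against 913 to 1275 in the others), in pan-neuronal genes (443 against 503 to 768) and in melanocyte markers (14.2 against 48.8 to 83.9), and the highest in macrophage markers (824 against 241 to 707).

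The deposited data place the arrays in batches in 2 ways. The authors' value table has 18 columns, and 6 of them carry the data of the array that bears the same label, while 12 carry the data of a differently labelled array, always one of that same time point. The array most like a given array among those of its day was its technical partner for 1 of 18 arrays when batches are read from the array files and for 14 of 18 when they are read from the value table. These are called the array-file batches and the value-table batches. Errors and adjusted p-values below come from limma with the array-file batches. "Rose" and "fell" are kept for genes whose adjusted p was under 0.05 with both sets of batches, and the p from the second set is called the value-table adjusted p. The median error over all genes was 0.139 with the value-table batches and 0.110 with the array-file batches. The count of nearest arrays favours the value-table batches. If the value-table batches are right, each array-file batch averages arrays of different pools, and the array-file batches of a day share pools. They are then not independent, and the errors, intervals and adjusted p-values from them tend to be too small. Where the value-table batches were also entered as a block over days, the p is called that of the block.

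Of 14540 genes tested, 89 rose from day 10 to day 22 (0.612% of genes) and 261 fell (1.80%). With the array-file batches alone, 752 genes (5.17%) were higher and 966 (6.64%) were lower. The value-table batches gave 95 (0.653%) and 266 (1.83%), and as a block they gave 253 (1.74%) and 319 (2.19%). Of the genes that rose, 55 changed at least 2-fold, and of those that fell, 180 did. All 89 and all 261 had the same direction among the arrays of slide 1 and among those of slide 2. The 6 arrays of one day lay wholly above the 6 of the other in 81 of the 89 and 254 of the 261, against 10.8% of all genes. The genes were chosen by p-values from these same arrays. The agreement between slides and the separation of arrays follow largely from that choice and are no separate support. Only 74 of the 89 and 221 of the 261 were well above background on all 12 arrays. One of the genes that fell, Elovl2, was well above background on no array of either day and had entered the test through day 0. Leaving out any 1 batch removed many of the calls made with the value-table batches: between 0 and 47 of the 89 and between 4 and 192 of the 261 then passed, with 0 and 4 without day 10 batch 2 and 13 and 49 without day 10 batch 1. The 4 were Lrrtm1, Myo3b, Elovl2 and 6330403K07Rik. Elovl2 and 6330403K07Rik are named because of that count.

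Genes that stayed level until day 10 and passed the test afterwards were few. A gene was called flat where the 95% confidence interval of its change from day 0 to day 10 lay within 1.5-fold in either direction, and 7250 of the 14540 genes (49.9%) were flat with both sets of batches. Of these, 13 rose (0.0894% of all genes) and 22 fell (0.151%). Flat means within that bound and not without change: Niban2, Tgoln1, Tspan15 and Atxn7l3b had small changes of the same sign by day 10 that passed with both sets of batches. A stricter rule also required that the change after day 10 differ from the change before it, by a test of that difference. With the array-file batches 24 genes met it in the upward direction (0.165%) and 12 in the downward direction (0.0825%). It was met by 0 genes with the value-table batches, although 31 of those 36 had an unadjusted p under 0.05 for the difference (1728 genes of all tested did). Of the 36, only Cntf and Maml2 rose and Sapcd1, Megf6, Nkain4, Bhlhb9 and Mpzl1 fell by both sets of batches. With the array-file batches, Adgrl1 and Tspan15 lay just inside the bound for flat genes, with changes to day 10 of -0.40 and -0.36, and Hyls1 and Traf5 lay just outside it, with -0.42 and -0.32.

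Cntf encodes ciliary neurotrophic factor, a survival factor for neurons that myelinating Schwann cells make. Its level on the 6 arrays was 1.14 at the lowest, 1.46 at the median and 2.39 at the highest on day 0, then 1.52, 1.77 and 1.84 on day 10, and 3.10, 3.36 and 3.60 on day 22. The arrays of days 0 and 10 overlap, and every day 22 array lies above all of them. Cntf rose by 1.65 ± 0.15, or 3.15-fold (adjusted p = 0.00173, value-table adjusted p = 0.00981), after a change of 0.17 ± 0.15 to day 10. The difference between both steps passed with the array-file batches (adjusted p = 0.0283) and had an adjusted p of 0.119 with the value-table batches. The probes for Cntf gave changes of 1.64 and 1.65.

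Csf1 encodes colony stimulating factor 1, on which macrophages depend. It lay between 0.98 and 1.41 on day 0, between 1.01 and 1.60 on day 10 and between 1.60 and 2.32 on day 22, with medians of 1.16, 1.21 and 2.09. The highest day 10 array and the lowest day 22 array nearly met. Csf1 rose by 0.81 ± 0.13 (adjusted p = 0.0109, value-table adjusted p = 0.0248) after a change of 0.05 ± 0.13. The test of the difference between both steps had an adjusted p of 0.115, so for Csf1 only the flatness and the later rise passed.

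Rrad, a small GTPase that restrains calcium channels, is 1 of the 13 but was well above background on 2 of 6 arrays on each of days 0 and 10 and on 6 on day 22. It entered the test through day 22, and its earlier flatness rests mostly on spots not above background, so no change is given. The other flat genes rose by less than 2-fold. Ccrl2, an atypical chemokine receptor, rose by 0.98 ± 0.13 and was above background on 6 arrays on day 0 and 5 on day 10. Osgin1, which is induced by oxidative stress, rose by 0.72 ± 0.09, and its adjusted p with the block was 0.0548. Niban2 rose by 0.67 ± 0.08, with 5.14 to 5.41 on day 10 and 5.82 to 6.15 on day 22, after 0.35 ± 0.08 to day 10 (adjusted p = 0.0117, value-table adjusted p = 0.0351). Mcfd2, which helps carry coagulation factors out of the endoplasmic reticulum, rose by 0.61 ± 0.08 after 0.26 ± 0.08. Tgoln1, a protein of the trans-Golgi network, rose by 0.46 ± 0.06 after 0.35 ± 0.06 to day 10 (adjusted p = 0.00477, value-table adjusted p = 0.0303), and its steps did not pass the test of their difference (adjusted p = 0.628). Maml2, a coactivator of Notch, rose by 0.57 ± 0.07 from a low level, between -2.88 and -2.64 on day 10 and between -2.23 and -2.01 on day 22. Pkd2, the calcium-permeable channel polycystin 2, rose by 0.49 ± 0.08 and Plekho2 by 0.56 ± 0.09. The splicing regulator Mbnl1 rose by 0.49 ± 0.08 and the calpain inhibitor calpastatin, Cast, by 0.40 ± 0.07, and their adjusted p with the block was 0.0548 and 0.0551.

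**Figure D1:**
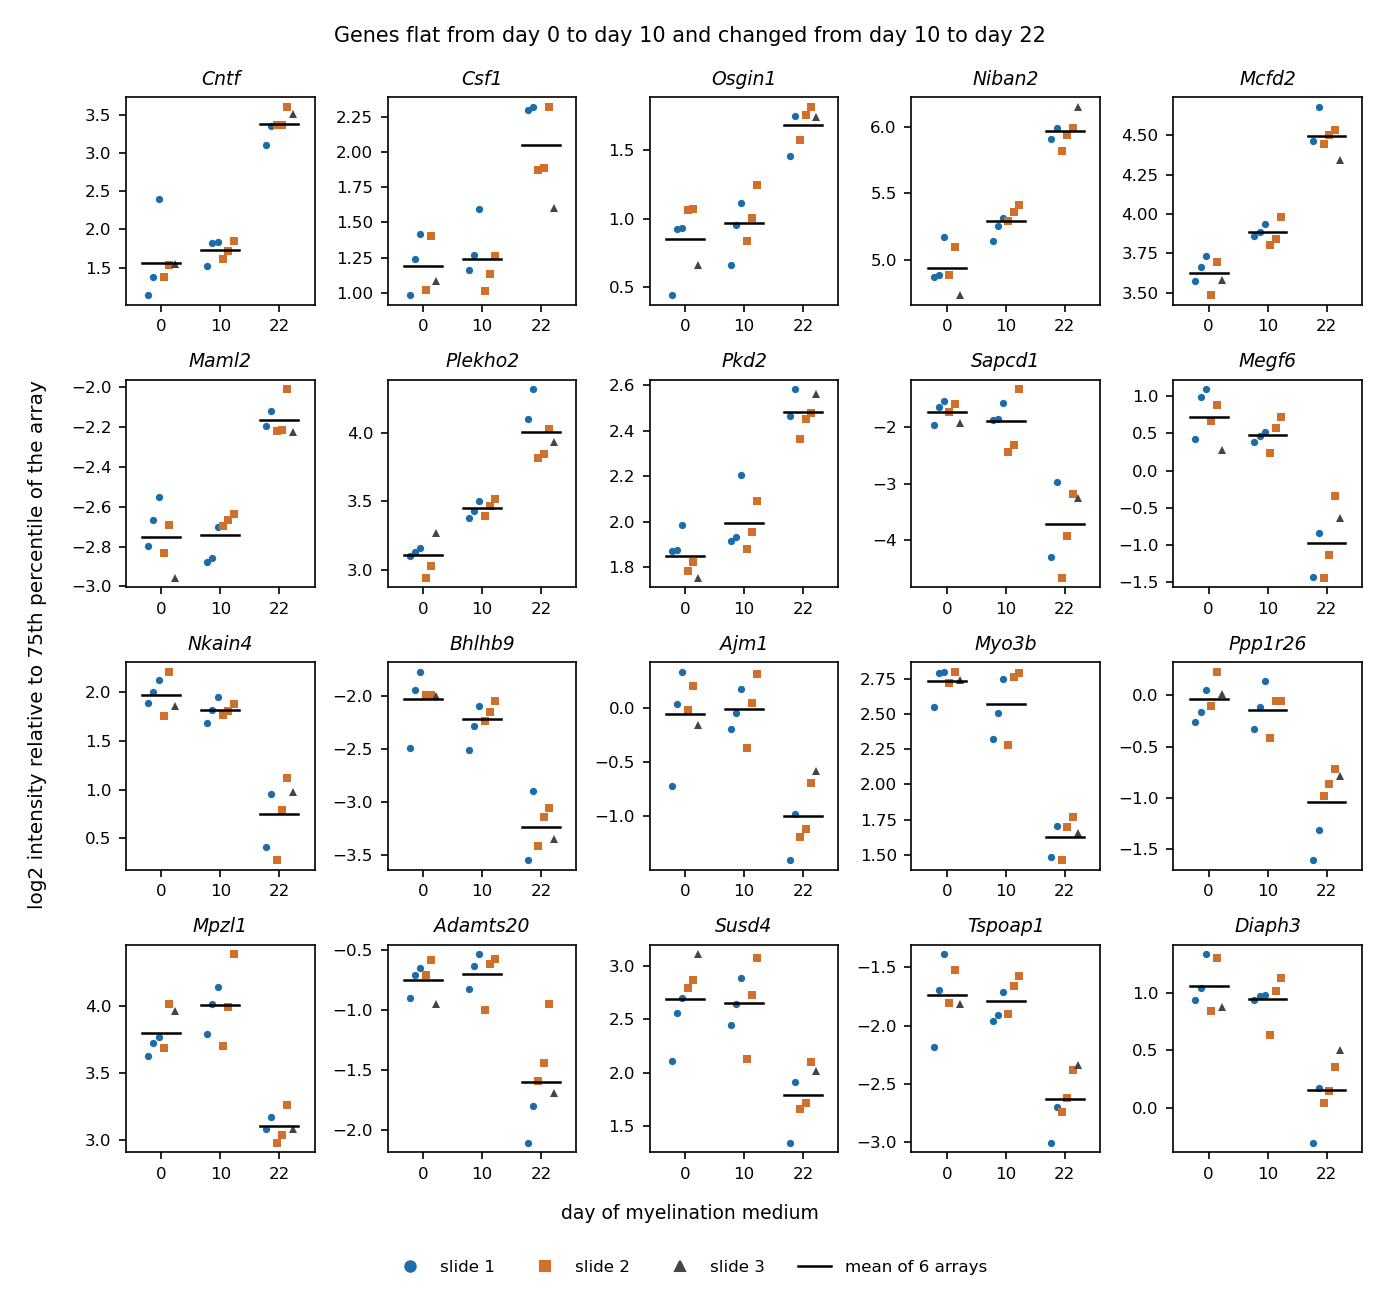
Levels of 20 genes that were flat from day 0 to day 10 (Sapcd1 and Megf6 with the array-file batches alone) and changed afterwards, the 8 largest rises (Cntf to Pkd2) and the 12 largest falls (Sapcd1 to Diaph3) among genes well above background on all 12 arrays of days 10 and 22 whose batch values did not overlap between those days. Each point is 1 array, its shape and colour give the slide, the bar is the mean of 6 arrays, the horizontal axis is the day of myelination medium and the vertical axis the log2 level. In Cntf the day 22 arrays lie between 3.10 and 3.60, above all arrays of days 0 and 10, and in Sapcd1 they lie between -4.66 and -2.97, below all others.

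Sapcd1 and Megf6 met the rule for flat genes with the array-file batches and not with the value-table batches. Sapcd1 had medians of -1.69 on day 0, -1.86 on day 10 and -3.59 on day 22. Its arrays ranged from -2.43 to -1.32 on day 10 and from -4.66 to -2.97 on day 22, without overlap. Sapcd1 fell by 1.82 ± 0.13, or 3.54-fold (adjusted p = 0.000796, value-table adjusted p = 0.0414), and its error was 0.34 with the value-table batches. Megf6, a protein with repeated EGF-like domains, had a median of 0.77 on day 0, was between 0.24 and 0.72 on day 10 and between -1.44 and -0.34 on day 22. It fell by 1.45 ± 0.14 after a change of -0.24 ± 0.14, and its error was 0.23 with the value-table batches.

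The genes that fell among those flat with both sets of batches were led by Nkain4. Nkain4, a membrane protein that binds the sodium pump, ranged from 1.75 to 2.21 on day 0, from 1.68 to 1.95 on day 10 and from 0.28 to 1.12 on day 22, and fell by 1.07 ± 0.11 (adjusted p = 0.00264, value-table adjusted p = 0.0279), with an error of 0.18 with the value-table batches. Mpzl1, an immunoglobulin-family receptor, ranged from 3.63 to 4.02 on day 0, from 3.71 to 4.39 on day 10 and from 2.98 to 3.26 on day 22. It fell by 0.90 ± 0.10 (adjusted p = 0.00311, value-table adjusted p = 0.0207), and the days 10 and 22 did not overlap. Bhlhb9 fell by 1.01 ± 0.09. The class III myosin Myo3b fell by 0.94 ± 0.10, from 2.28 to 2.80 on day 10 to 1.46 to 1.77 on day 22.

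The junction component Ajm1 fell by 0.98 ± 0.19, the secreted metalloprotease Adamts20 by 0.89 ± 0.16, the complement regulator Susd4 by 0.86 ± 0.20 and the presynaptic protein Tspoap1 by 0.84 ± 0.15. In Adamts20 the brightest day 22 array lay just above the dimmest day 10 array. The collagen-binding protein Chadl fell by 0.75 ± 0.13. Col1a1, the main chain of type I collagen, was between 6.91 and 7.38 on day 10 and between 6.38 and 6.67 on day 22, and fell by 0.54 ± 0.09 (adjusted p = 0.0123, value-table adjusted p = 0.0355). Chsy1, a chondroitin sulphate synthase, fell by 0.51 ± 0.09. Diaph3, a formin used in cell division, fell by 0.79 ± 0.12, Ppp1r26 by 0.91 ± 0.16 and the growth factor receptor Fgfr4 by 0.74 ± 0.18, and their adjusted p with the block was 0.0504, 0.0507 and 0.0501. Mnd1, known from meiotic recombination, fell by 0.70 ± 0.09. The remaining members Mageh1, Rufy2, 2700081O15Rik, Jmjd7, Zfp518b, Atxn7l3b and Tspan15 fell by 0.62 to 0.44. With the block the adjusted p was 0.0682 for Mageh1, 0.0512 for 2700081O15Rik, 0.0507 for Zfp518b and 0.0501 for Tspan15, and the 3 probes of Rufy2 ranged from -0.56 to 0.43.

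Some genes met the stricter rule with the array-file batches and did not pass with the value-table batches, although the block called Tnni1 (adjusted p = 0.0474) and Olfm3 (0.0246). Vsig8 differed by 1.99 ± 0.19 with a value-table adjusted p of 0.111, Sult1a1 by 1.38 ± 0.14 with 0.155, and Tnni1, a slow muscle troponin, was 2.47-fold higher with 0.0516. In the other direction Mcf2 differed by -1.51 ± 0.14 with a value-table adjusted p of 0.121, Olfm3 by -1.44 ± 0.14 with 0.0807 and the GABA receptor subunit Gabrb2 by -1.13 ± 0.14 with 0.0692. Mcf2 was well above background on 4 of 6 arrays on day 22. The other 23 genes of the 36 differed by -0.49 to 0.65.

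Large rises among genes measured on all 12 arrays were as follows. Sprr1a, induced in injured sensory neurons, ranged from -4.04 to -2.10 on day 10 and from -1.78 to 0.93 on day 22. It rose by 3.00 ± 0.42 (adjusted p = 0.00601, value-table adjusted p = 0.0153), after 2.15 in the first interval. The days did not overlap.

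The 6 other genes described here had all been higher by over 2 log2 units in the first interval too. Vsig4, a complement receptor of resident macrophages, rose by 2.96 ± 0.42, the xanthine oxidising enzyme Xdh by 2.65 ± 0.45 and the leukocyte metalloprotease Adam8 by 2.43 ± 0.40. Wfdc17, a small secreted protein of macrophages, rose by 2.57 ± 0.32, with an adjusted p of 0.0602 with the block. Ctla2a, which inhibits cathepsins, rose by 2.63 ± 0.24, and Gm14461 rose by 2.44 ± 0.49. Ctla2a has a close paralogue, Ctla2b, that its probe may not tell apart.

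Among genes well above background on all 12 arrays, the largest fall was that of Ly6h. Ly6h, a GPI-anchored protein that modulates nicotinic receptors, ranged from 3.39 over 3.89 to 4.49 on day 10 and from -0.13 over 0.70 to 1.24 on day 22, far apart. It fell by 3.30 ± 0.29 (adjusted p = 0.00143, value-table adjusted p = 0.00976). Camkv, a kinase-like protein of dendritic spines, fell by 2.76 ± 0.65, with 0.17 to 2.51 on day 10 and -2.72 to 0.07 on day 22. Lrrtm1, a synaptic adhesion protein, fell by 2.25 ± 0.19, with -0.12 to 0.47 on day 10 and -2.70 to -1.59 on day 22. The histone genes H2ac4 and H1f5 fell by 2.13 ± 0.28 and 2.08 ± 0.31, with an adjusted p of 0.0635 and 0.0682 with the block, and H2ac4 has near-identical copies. The cell cycle regulators Mxd3 and E2f7 fell by 2.18 ± 0.18 and 2.15 ± 0.23, but the other probe of E2f7 gave only -0.26.

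**Figure D2:**
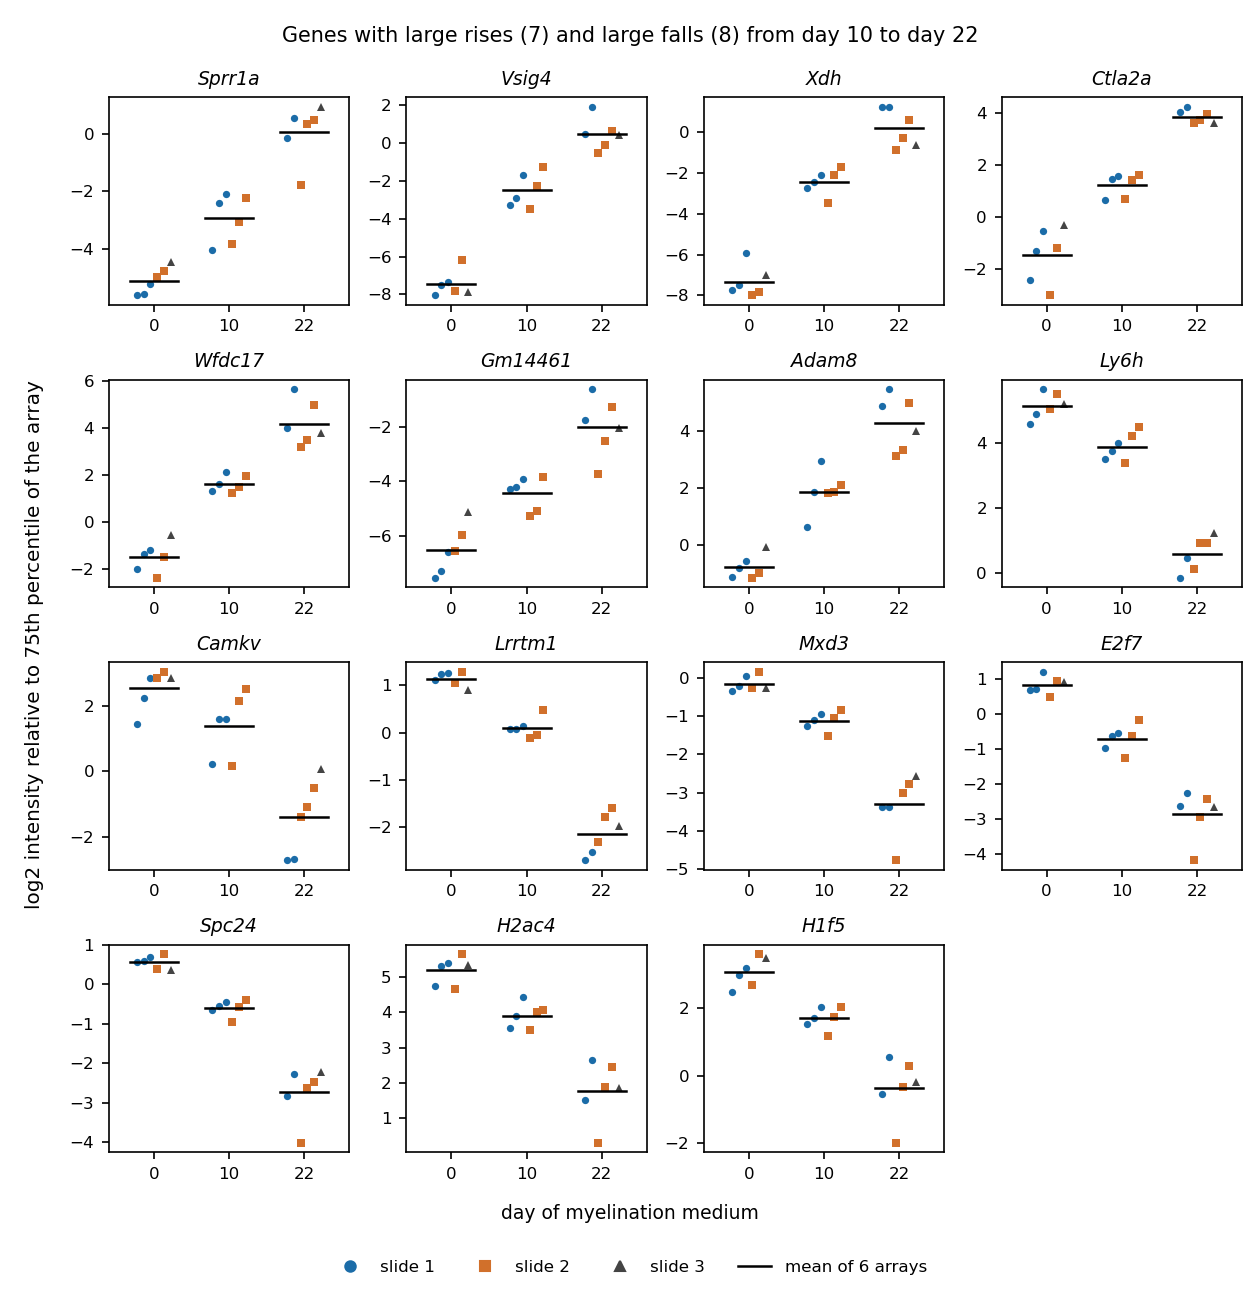
Levels of 7 genes with large rises (Sprr1a to Adam8) and the 8 with the largest falls (Ly6h to H1f5) that were well above background on all 12 arrays of days 10 and 22. Points are arrays with the slide as shape and colour, bars are means of 6 arrays, the horizontal axis is the day and the vertical axis the log2 level. In Sprr1a day 10 lies between -4.04 and -2.10 and day 22 between -1.78 and 0.93, and the genes shown had changes of the same sign in both intervals.

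The genes of mitosis had the lowest median change of the 55 lists. Of 31 tested, 25 fell, against 1.80% of all genes, and 0 rose. Their median was -1.74, against -0.02 over all genes. The value-table calls depended on single batches: with batch 1, 2 or 3 of day 10 left out, 4, 0 and 15 of the 31 were lower with the value-table batches, and without batch 3 of day 22, 14 were. With the array-file batches 30 were lower, and between 27 and 31 when 1 batch was left out. If the value-table batches are right, an array-file batch mixes pools, so leaving it out removes no whole pool. Of 31 DNA replication genes 11 fell (median -0.62), of 20 repair genes 9 (median -0.90), and of 18 chromatin genes of dividing cells 7 (median -0.58). Together 52 of the 100 genes of these 4 lists fell and 0 rose. The median first-interval changes of these lists were -1.17, -0.79, -0.76 and -0.65.

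Mki67, the standard marker of cycling cells, ranged from 2.38 over 3.10 to 3.18 on day 10 and from -0.91 over 1.16 to 1.63 on day 22. The days do not overlap, and Mki67 fell by 1.99 ± 0.29 (adjusted p = 0.00743, value-table adjusted p = 0.0347). Kif11, a spindle motor, fell by 2.19 ± 0.21, with 5 of 6 day 22 arrays above background, and the kinetochore gene Spc24 by 2.14 ± 0.15. The mitotic cyclin Ccnb1 fell by 2.08 ± 0.29 and topoisomerase Top2a by 2.05 ± 0.30. Of the mitosis list, Ccnb2 (-1.74 ± 0.29, value-table adjusted p = 0.0614), Ndc80 (-1.70 ± 0.30, 0.0545) and Cenpa (-0.91 ± 0.28, 0.223) did not pass by both.

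In DNA synthesis, the ribonucleotide reductase subunit Rrm2 fell by 1.75 ± 0.20, the replication licensing regulator Dtl fell by 1.71 ± 0.25 and the polymerase subunit Pole by 1.43 ± 0.12. The origin factor Mcm10 fell by 1.25 ± 0.19 (adjusted p = 0.0533 with the block). The sliding clamp Pcna, also used in repair, did not pass (-0.11 ± 0.10). In repair, Fanci fell by 1.68 ± 0.14 and Exo1 by 1.60 ± 0.26. Among chromatin genes, Uhrf1, which maintains DNA methylation, fell by 1.88 ± 0.20, the lamin gene Lmnb1 by 1.53 ± 0.19, the histone chaperone Asf1b by 1.28 ± 0.15 and Hmgb2 by 1.16 ± 0.14 (adjusted p = 0.0524 with the block).

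The promoters of mitotic genes are known for 2 short elements, the cell cycle genes homology region TTTGAA and the CCAAT box. The windows below run from 150 bases before to 30 bases after the RefSeq start (GRCm38.p6) of the 4 mitosis genes with the largest falls that have such a window. They are printed 5′ to 3′ on the gene's strand, and capitals mark TTTGAA or CCAAT on either strand. Kif11 is at chr19:37376232-37376411 on the plus strand, and Ccnb1 at chr13:100786457-100786636, Top2a at chr11:99024160-99024339 and Mki67 at chr7:135716350-135716529 are on the minus strand.
Kif11: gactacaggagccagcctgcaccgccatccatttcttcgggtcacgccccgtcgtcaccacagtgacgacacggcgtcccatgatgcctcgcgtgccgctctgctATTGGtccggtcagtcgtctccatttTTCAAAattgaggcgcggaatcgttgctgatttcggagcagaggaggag
Ccnb1: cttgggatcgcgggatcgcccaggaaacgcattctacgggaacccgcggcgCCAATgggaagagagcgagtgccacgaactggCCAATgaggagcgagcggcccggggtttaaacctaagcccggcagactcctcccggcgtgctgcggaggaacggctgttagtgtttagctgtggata
Top2a: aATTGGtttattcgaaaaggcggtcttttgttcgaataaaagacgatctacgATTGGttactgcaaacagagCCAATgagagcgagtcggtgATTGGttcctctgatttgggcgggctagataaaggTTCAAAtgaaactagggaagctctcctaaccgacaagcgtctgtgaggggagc
Mki67: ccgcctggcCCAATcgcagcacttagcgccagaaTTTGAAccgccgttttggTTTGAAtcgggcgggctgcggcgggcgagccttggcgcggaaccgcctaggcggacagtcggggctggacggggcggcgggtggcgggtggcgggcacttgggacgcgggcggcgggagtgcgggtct

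In Kif11 the TTCAAA match, the first element read on the other strand, begins 19 bases before the start with an ATTGG at 45, and in Top2a these begin at 23 and 58 bases. The printed Ccnb1 window holds no TTTGAA on either strand, with CCAAT at 99 and 67 bases. In Mki67 TTTGAA begins at 116 and 98 bases and CCAAT at 141. Over the whole RefSeq windows of 300 bases, TTTGAA on either strand was found in 70.8% (17 of 24) of windows of the mitosis genes that fell. It was found in 26% of those of the fallen genes outside the 4 division lists and in 12.2% of 14721 windows of all genes tested. CCAAT on either strand was found in 79.2%, 51% and 37.3%. RefSeq windows were at hand for 22 of the 25 mitosis genes, and neighbouring matches of both elements can share at most 1 letter. A match describes the letters and shows no binding.

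**Figure D3:**
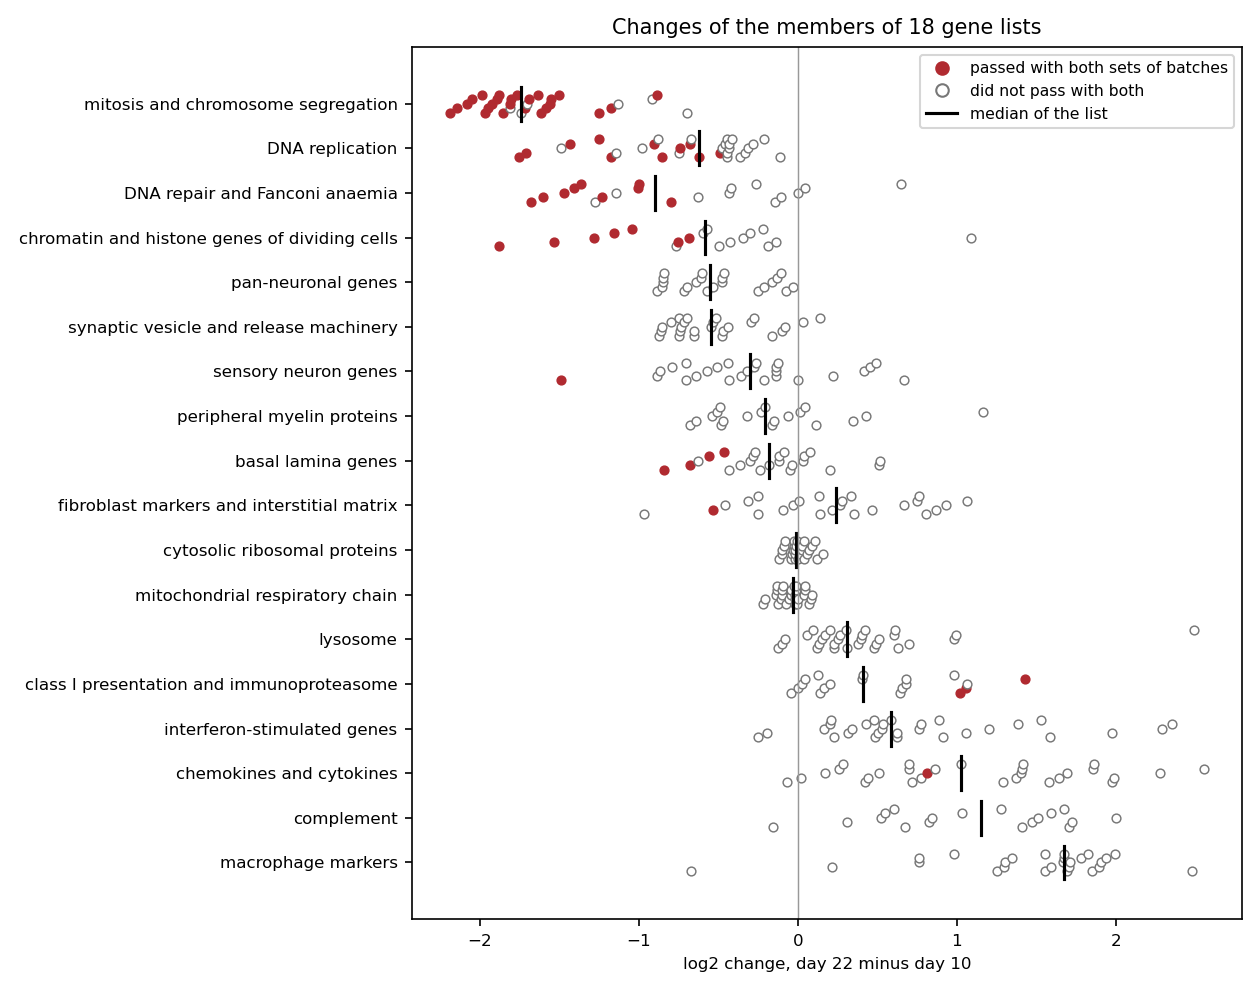
Changes of the tested members of 18 gene lists. Each point is a gene placed on the horizontal axis by its log2 change from day 10 to day 22, filled where it passed with both sets of batches, and the bar is the median of the list. The mitosis list has 25 filled points and a median of -1.74, and the macrophage list has a median of 1.67 and 0 filled points.

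Neuronal genes lay below 0, and almost none passed. All 22 pan-neuronal genes had a negative change, with a median of -0.55, and 0 fell by both sets of batches. With the array-file batches 3 were lower: Syt1 (-0.85 ± 0.20), Ina (-0.84 ± 0.16) and Dpysl3 (-0.61 ± 0.15). Tubb3, a neuronal tubulin, ranged from 5.39 over 5.57 to 5.78 on day 10 and from 5.05 over 5.29 to 5.67 on day 22, and its change of -0.25 ± 0.17 did not pass (adjusted p = 0.389). Of 25 synaptic vesicle genes, 23 were below 0 (median -0.54) and 0 passed by both. Of 26 sensory neuron genes 1 fell, the transcription factor gene Pou4f2, by 1.49 ± 0.34 (adjusted p = 0.0681 with the block), with 2 of 6 day 22 arrays above background. The summed level of the pan-neuronal genes ranged from 638 to 954 on day 10 and from 443 to 768 on day 22. Its part in the falls of Ly6h, Camkv and Lrrtm1 was not tested. The lowest change among the pan-neuronal genes was -0.88, for Rbfox3. Ly6h, Camkv and Lrrtm1 were named for being among the largest falls of all genes, so the difference in size follows from that choice.

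No gene of the peripheral myelin list passed by both sets of batches in this interval. Of 19 peripheral myelin genes tested, 0 rose and 0 fell by both sets of batches, with a median change of -0.20, after a median of 0.89 in the first interval. Mbp, a main protein of compact myelin, ranged from 3.72 over 4.04 to 4.37 on day 10 and from 3.42 over 3.94 to 4.23 on day 22. Its change of -0.23 ± 0.17 had an adjusted p of 0.455 and a 95% interval from -0.63 to 0.17. Pmp22, another protein of compact myelin, had medians of 7.36 and 7.62 and a change of 0.11 ± 0.16 (adjusted p = 0.701), with a 95% interval from -0.24 to 0.47. The ranges of both days overlapped in both genes.

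Single members of the myelin list differed in 1 of the fits. The block called Cnp, an enzyme of myelinating glia, lower (-0.51 ± 0.15, adjusted p = 0.0498), and the array-file batches called a pair of genes. Drp2, which links the outer Schwann cell membrane to the basal lamina, differed by 1.17 ± 0.27 (value-table adjusted p = 0.0911) and Tspan2 by -0.48 ± 0.11 (value-table adjusted p = 0.122). Among 23 regulators of Schwann cell myelination 0 passed by both. Egr2, the transcription factor that drives the myelin programme, changed by -0.73 ± 0.40 (adjusted p = 0.288), and Pou3f1, expressed in Schwann cells about to myelinate, by -1.28 ± 0.32 (adjusted p = 0.0406, value-table adjusted p = 0.27).

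In the basal lamina, 4 of 23 genes fell, against 1.80% of all genes, and 0 rose (median -0.18). Lama2, the laminin chain of the Schwann cell basal lamina, ranged from 5.31 to 5.59 on day 10 and from 4.43 to 5.03 on day 22. The ranges were apart, and Lama2 fell by 0.84 ± 0.10 (adjusted p = 0.00332, value-table adjusted p = 0.0119). The laminin chains Lama4 and Lamb1 fell by 0.56 ± 0.10 and 0.46 ± 0.09, the first with an adjusted p of 0.0615 with the block. The laminin-binding nidogen Nid2 fell by 0.68 ± 0.09, while Nid1 had a change of -0.04 ± 0.08. The changes of these 4 genes from day 0 to day 10 were between -1.09 and -0.50. Lama5 differed by 0.51 ± 0.14 (adjusted p = 0.0604). Of 24 genes of fibroblasts and interstitial matrix only Col1a1 passed by both, and the summed level of the list was 1299 to 1673 on day 10 and 1333 to 1685 on day 22.

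Immune genes had higher levels on day 22, and their calls depended on which batches were used. Of 26 macrophage markers, the array-file batches called 17 higher, the value-table batches 0 and the block 14, with a median change of 1.67. Over all genes the same 3 fits called 5.17%, 0.653% and 1.74% higher. Lyz2, the lysozyme of macrophages, ranged from 2.13 over 2.96 to 3.63 on day 10 and from 3.66 over 4.85 to 5.89 on day 22. The ranges just failed to overlap, and the change was 1.90 ± 0.38 (adjusted p = 0.0211, value-table adjusted p = 0.0857, adjusted p with the block 0.0567). The markers' summed level was 151 to 265 on day 10 and 241 to 824 on day 22, and the 3 highest day 22 arrays were both of slide 1 and 1 of slide 2. The median change of the list was 2.50 within slide 1 and 1.17 within slide 2. With 1 batch left out, the array-file count lay between 1 and 23, and it was 8 without day 22 batch 1, which holds that slide 1 array with the highest sum. Of 18 complement genes these 3 fits called 11, 0 and 6 higher, and of 29 interferon-stimulated genes 16, 0 and 6.

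A few immune genes passed by both sets of batches, by which 0.612% of all genes rose. Of 19 class I presentation genes 3 rose: Nlrc5, the transactivator of class I genes, by 1.43 ± 0.22, H2-D1 by 1.06 ± 0.18 and H2-Q7 by 1.02 ± 0.17 (adjusted p = 0.0544 with the block). The H2 genes are near-identical copies that probes may not tell apart. Of 10 class II presentation genes tested only H2-DMb1 passed by both, and 4 lay below 0. H2-DMb1, which helps load class II molecules, rose by 1.74 ± 0.21, from -2.33 to -1.63 on day 10 to -1.01 to 0.56 on day 22. Mmp12, the elastase of macrophages, is also in the count of genes that rose, but only 3 of 6 day 10 arrays were above background. It did not enter the test through day 10, so no change is given. Outside the immune lists, Plin2, which coats lipid droplets, rose by 0.81 ± 0.12. Of 29 chemokines and cytokines Csf1 alone passed by both, while 13 were higher with the array-file batches. The part of the macrophage markers' level in these rises was not tested.

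**Figure D4:**
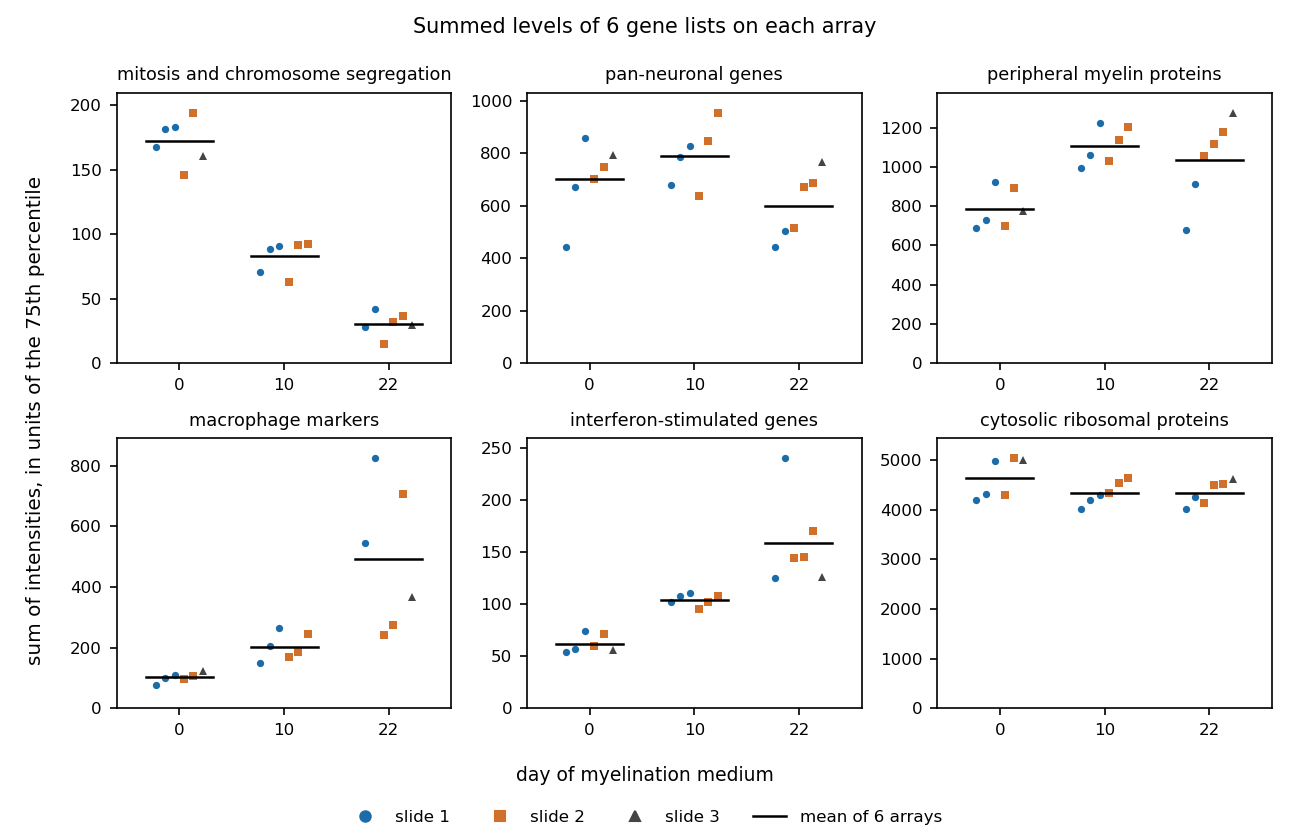
Summed intensities of 6 gene lists on each array, in units of the array's 75th percentile, by day of myelination medium. Points are arrays with the slide as shape and colour, and bars are means of 6 arrays. The mitosis sum lies between 63.0 and 92.4 on day 10 and between 15.2 and 42.0 on day 22, the macrophage sum spreads to 824 on day 22, and the ribosomal sum stays between 4015 and 4634 over both days.

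Genes of general cell upkeep moved little. Of 27 cytosolic ribosomal proteins all were flat in the first interval and 0 passed in the second, with changes between -0.12 and 0.16. Of 21 proteasome genes the changes lay between 0.01 and 0.16, and of 28 respiratory chain genes between -0.22 and 0.09, with 0 passing in each by any of the 3 fits. Of 22 cholesterol synthesis genes 0 passed by both (median -0.22), although 18 lay below 0. Of 24 genes of fatty acid and sphingolipid synthesis 0 passed by both (median -0.09). In all, 14 of the 55 lists had a gene that passed by both sets of batches.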

How the data were processed

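Total RNA, labelled with Cy3, was measured on one-colour Agilent arrays. The authors deposited the intensity of each spot, background-subtracted by Feature Extraction 10.7.1.1, per the file headers (10.7.1 per the submitters' processing notes), and a value table of intensity whose making is not given in the sources used here. It served for an alternative and for its batches. Of 55681 probes, 26582 matched 20145 symbols of a RefSeq table (GRCm38.p6).

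Levels are log2 of the deposited intensity minus the array's 75th percentile. Control and outlier spots were left out and spots of a probe averaged. Probes were kept if well above background on each of the 6 arrays of some day, and the brightest stood for its gene. Technical arrays were averaged. limma 3.58.1 (R 4.3.3) was fitted to 9 batch values of 3 days, with Benjamini-Hochberg adjustment over 22852 features, and tested on simulated data.

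Replicate numbers name the batch, per the labels. Deviations of same-numbered samples of days 10 and 22 correlated at 0.29, -0.15 and 0.37 with the array-file batches and at 0.16, -0.15 and 0.20 with the value-table batches. The comparison and the 55 gene lists (1154 genes, 46 of them in several) were chosen with earlier results of these data known. Named genes are up to 15 flat-then-changed genes and the 8 largest changes per direction with batches apart and all 12 arrays above background, up to 4 passing and 3 other members of a list, the 4 largest bounds per direction, and Mki67, Mbp, Pmp22, Egr2, Tubb3 and Lyz2. A few of these genes are not reported here. Other flat genes were named after their values were seen. Alternatives covered batches, block, normalization, background (normexp, on the median signal), filter, probes, slides and left-out batches.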

Additional observations from a re-analysis of the deposited data

Results flagged for a closer look

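The 6 arrays of each day were checked for a value far from the rest, over 49 named genes and 5 list sums (108 groups in all), of which chance flags about 1 in 20. It found 3 groups, all on day 22 and all with the same lowest array, which lies on slide 2. Mki67 was at -0.91 there and at 1.04 or above on the 5 other arrays. Spc24 was at -4.01, with the next array at -2.83, and E2f7 at -4.18, with the next at -2.93. The same array had the lowest summed level of the mitosis genes, 15.2 against 28.0 to 42.0 on the others, a sum that did not itself meet the limit. With day 22 batch 2 of the value table, which holds it, left out, 22 of 31 mitosis genes were still lower with the value-table batches. The cause was not tested.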

How the results depend on the processing

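The main counts with the array-file batches were 752 higher and 966 lower genes, and the rule for genes flat before day 10 with a test of the difference gave 24 and 12. The value-table batches gave 95 and 266, and 0 and 0 for the flat rule. As a replicate block they gave 253 and 319, and 0 and 0. The array-file replicate block gave 941 and 1052, and 12 upward flat genes. The authors' value table, fitted with its own batches, gave 75 and 268, and 0 and 0. It changes both the values and the batches. Without a filter on dim probes the counts were 360 and 524, and 3 and 3. Days 10 and 22 alone gave 420 higher. The first technical arrays gave 21 and 50, the second 55 and 176, both with 0 flat genes in either direction. With slide as a block there were 1590 and 2172, and 140 and 135. Within slide 1 and within slide 2 there were 0 and 0 of each kind. For the downward flat rule, quantile normalization gave 24, normexp 19 and the filter on all 12 arrays 20. A flat bound of 2-fold gave 42 and 40, one of 1.3-fold 3 and 0, a change of at least 2-fold 4 and 7, no test of the difference 197 and 291, and both sets of batches without that test 13 and 22. Leaving out 1 batch gave 206 to 1271 higher, 380 to 1441 lower, and 0 to 60 and 0 to 47 flat genes. For the value-table counts it gave 0 to 84 and 4 to 239, within slide 1 162 higher, within slide 2 8 and 26, and with slide as a block 279 and 578. Of the 76 named genes compared below, 70 rose or fell by both sets of batches. Their kept directions and calls follow largely from that choice and are no separate support. Of 1593 values of 76 named genes under 21 settings, 1271 kept direction and call, 318 kept the direction and lost the call, 1 gained it and 3 reversed, all of Pmp22: -0.034 with the first technical arrays, -0.28 within slide 1 and -0.00578 without day 22 replicate 3, where leaving out other batches gave up to 0.31. The cause was not tested.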

Other observations

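A few gene families stood out by name and were picked after their values were seen, so their counts carry no test. Over all genes 0.612% rose and 1.80% fell. Of 37 kinesin genes named Kif, 11 fell and 0 rose, with changes from -2.25 to 0.28. Kinesins of this family move chromosomes and spindles, and others carry cargo along axons. Of 12 Serpinb genes, protease inhibitors of the cell interior, 3 rose, and of 15 Serpina genes, their secreted relatives, 4 rose, with 0 falling in either. Both genes named Ctla2 rose. Of 5 Cacng genes, subunits of calcium channels and of glutamate receptor complexes, 2 fell. Of 24 vomeronasal receptor genes named Vmn1r, 9 rose (median 0.34), but these are near-identical copies whose probes may not tell them apart.

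For genes measured on 6 arrays of day 10 or of day 22 and below the detection limit throughout the other day, a bound can be given, against the lowest signal well above background or the dim probe's own signal where that was higher. Serpina3m was at least 2.34-fold higher on day 22 than on day 10 and Stra6l at least 2.00-fold higher. Both were above background on no array of days 0 and 10 and entered the test through day 22, so no test is given. They remain in the count of genes that rose. Cacng5 was at least 3.06-fold lower on day 22 (adjusted p = 0.00499, value-table adjusted p = 0.0373), Lingo4 at least 1.74-fold lower and the kinesin Kifc5b at least 1.68-fold lower. Lingo4 entered the test through day 10 alone, so no test is given for it. Myzap, at least 2.50-fold higher, and Vsnl1, a neuronal calcium sensor, at least 3.17-fold lower, did not pass with the value-table batches (0.161 and 0.0543). Myzap entered the test through day 22 alone and Vsnl1 through day 10 alone. 

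Of 24 genes of the Wnt list and 17 of the Notch list, 0 were higher or lower with any of the 3 fits. The Notch coactivator Maml2, which rose, was not in the Notch list.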
